A study of Mus musculus with 11 samples.

Results

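The 4 Hox clusters of the mouse and the 500 kb on either side of each were examined for ChIP-seq peaks of huntingtin (HTT) from striatal tissue. The intervals in build mm9 were HoxA at chr6:52100000-52230000, HoxB at chr11:96040000-96235000, HoxC at chr15:102745000-102870000 and HoxD at chr2:74480000-74610000. A peak belonged to an interval when its summit lay there. Of 1298473 peaks in the 7 lists, 2625 met this rule, 409 in the clusters and 2216 in the flanks. The intervals were set by position and not by any measured value.

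Huntington's disease arises from an expanded glutamine tract in HTT, and its neurons are lost first in the striatum. The mice were males aged 4 months from crosses on a B6 background, either heterozygous for the Q111 knock-in allele, which carries an expanded CAG repeat (Q111/+), or their wild-type littermates (WT). Q111/+ mice keep 1 normal Htt allele. All tissue was fixed with formaldehyde, its chromatin was cut by micrococcal nuclease and then sonicated, and the same HTT antibody was used in both genotypes. Lists from 4 Q111/+ and 3 WT libraries were used, and the 4 input libraries were not analysed here. No label states whether each library is its own animal, so the p-values speak for the scatter among these samples alone, and part of it may be technical.

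Hox genes encode homeodomain transcription factors that set position along the body axis, and their order within a cluster follows the order of the body regions in which they act. In forebrain neurons they are known to be kept silent by Polycomb complexes, which mark their chromatin through methylation of histone H3. The Polycomb repressive complex that lays this mark has been linked to HTT in earlier work on mouse embryos. Neither the histone mark nor RNA was measured in the files used here, so the repressed state of the clusters was not checked. In the RefSeq annotation (GRCm38.p6, used for names and order only) the clusters hold 39 Hox genes, 11 in HoxA, 10 in HoxB, 9 in HoxC and 9 in HoxD.

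The genes bordering the clusters are of other kinds. HoxA lies between Skap2, an adaptor protein of immune cells, and Evx1, a homeobox gene, followed by Hibadh, an enzyme of valine breakdown. HoxB lies between Ttll6, which adds glutamate chains to tubulin, and Skap1, the relative of Skap2. HoxC lies between Calcoco1, a transcriptional coactivator, and Smug1, which removes uracil from DNA. HoxD lies between Evx2, the relative of Evx1, which is followed by Lnpk, a protein of endoplasmic reticulum junctions, and Mtx2, a protein of the mitochondrial outer membrane. Paralogous genes recur beside the clusters because these were copied together in vertebrate ancestry. Among these neighbours are Cbx3 beside HoxA, Cbx1 beside HoxB and Cbx5 beside HoxC, which encode the heterochromatin protein HP1 family.

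The base composition of Hox promoters is shown for 1 gene per cluster, since dense CpG dinucleotides are a known feature of Polycomb targets in mammals. RefSeq promoter sequences (GRCm38.p6) matched 22 of the 39 Hox genes, 56.4%, too few to describe the set, so a check of composition over all Hox genes is void. They covered 9 of 11 genes in HoxA, 3 of 10 in HoxB, 1 of 9 in HoxC and 9 of 9 in HoxD. The gene with the most CpG dinucleotides among those matched was taken in each cluster. Each line gives the 250 bases before the start, 5′ to 3′ on the gene's strand, with CpG in capitals.
Hoxa13, chr6:52260881-52261130, minus strand: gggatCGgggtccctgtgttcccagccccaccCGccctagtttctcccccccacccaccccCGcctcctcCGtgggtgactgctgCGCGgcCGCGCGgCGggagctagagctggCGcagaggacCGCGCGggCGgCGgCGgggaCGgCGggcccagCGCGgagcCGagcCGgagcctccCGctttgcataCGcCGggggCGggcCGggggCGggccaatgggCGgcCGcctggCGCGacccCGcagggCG
Hoxb4, chr11:96318017-96318266, plus strand: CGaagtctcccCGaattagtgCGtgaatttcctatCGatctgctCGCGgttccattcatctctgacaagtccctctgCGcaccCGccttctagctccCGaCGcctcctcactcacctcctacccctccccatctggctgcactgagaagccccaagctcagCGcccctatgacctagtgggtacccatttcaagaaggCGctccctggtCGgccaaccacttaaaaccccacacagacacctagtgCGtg
Hoxc4, chr15:103034145-103034394, plus strand: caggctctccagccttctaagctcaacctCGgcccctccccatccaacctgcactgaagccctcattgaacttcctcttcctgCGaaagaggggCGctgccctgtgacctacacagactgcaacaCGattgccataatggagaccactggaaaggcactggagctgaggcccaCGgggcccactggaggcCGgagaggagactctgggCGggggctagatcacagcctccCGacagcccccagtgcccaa
Hoxd13, chr2:74667975-74668224, plus strand: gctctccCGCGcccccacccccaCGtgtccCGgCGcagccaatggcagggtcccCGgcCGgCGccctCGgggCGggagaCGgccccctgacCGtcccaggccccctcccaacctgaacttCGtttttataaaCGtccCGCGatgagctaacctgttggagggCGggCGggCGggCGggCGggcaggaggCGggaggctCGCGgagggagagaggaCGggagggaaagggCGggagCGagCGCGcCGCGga
The Hoxa13 stretch holds 35 CpG, a number reached by 2.97% of all 32851 RefSeq promoters. Hoxd13 holds 31, reached by 5.19% of promoters. Hoxb4 with 14 and Hoxc4 with 8 are nearer to the median of 6, and 29.4% and 43.0% of promoters hold at least as many. Each gene was picked as the greatest of those matched in its cluster, and the numbers matched differ, so these values do not rank the clusters. The shares set a picked greatest value against promoters that were not picked, so they do not show that Hox promoters are richer in CpG. The peaks are in another build and were not placed on these promoters.

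Before the results, 1 division of the libraries has to be given, since the values below follow it. The names of the deposited lists begin with DB for Q111/+ replicates 1 and 2 and WT replicate 1, and with JP for Q111/+ replicates 3 and 4 and WT replicates 2 and 3. The sources used here give no meaning for the prefixes. Lists held 88920 to 495334 peaks. The DB lists, with 111287, 88920 and 495334 peaks, spanned the range of the JP lists, with 105854, 110722, 248983 and 137373. Sequencing depth is unknown. Whole fragments under the peaks, worked back from the deposited fold and p, gave a median local background of 1.34, 1.33 and 1.14 fragments in the DB lists. In the JP lists it was 1.65, 1.58, 1.21 and 1.44 fragments. The backgrounds overlapped over both genotypes together, but within each genotype every DB list lay below every JP list. Whether this bears on the values below was not tested.

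Over all 7 lists, the Hox clusters were not distinguishable from their flanks in peak density. The DB lists were denser in the clusters than in the flanks, and the JP lists were about equal or sparser. Peaks per 100 kb of cluster numbered 12.1 in Q111/+ replicate 1, 7.59 in replicate 2, 2.59 in replicate 3 and 2.93 in replicate 4. In WT they numbered 34.5 in replicate 1, 5.34 in replicate 2 and 5.52 in replicate 3. The flanks held 5.93, 5.05, 2.75 and 4.12 peaks per 100 kb in the Q111/+ lists and 24.9, 7.20 and 5.43 in the WT lists. The 3 lists with the greatest cluster densities were those of prefix DB.

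**Figure D1:**
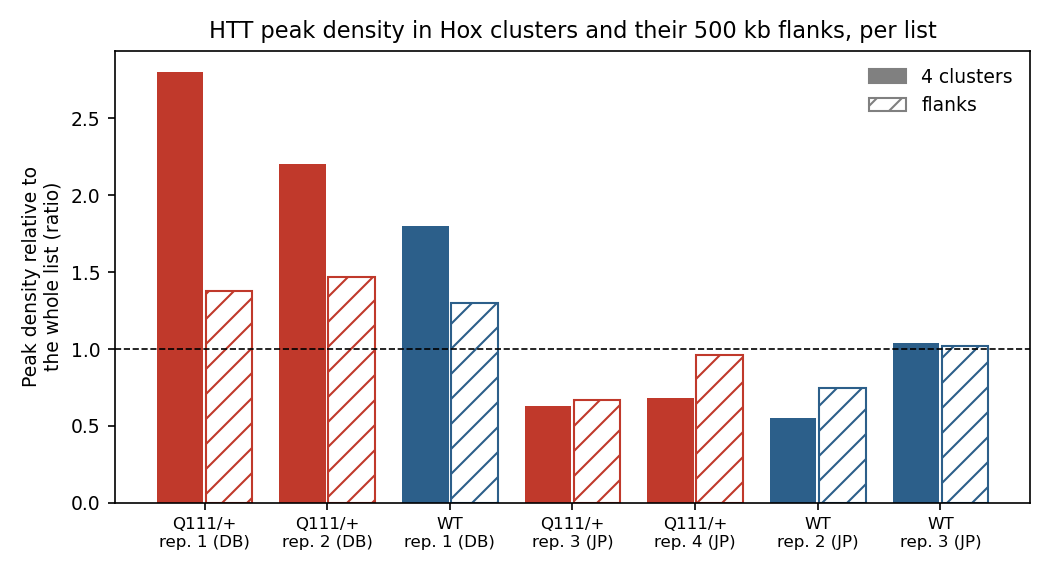
Peak density relative to the whole list in the 4 Hox clusters together (filled bars) and in their flanks (hatched bars). Each library has 1 pair of bars, coloured by genotype and labelled with the prefix of its list name. The dashed line marks a ratio of 1. In the 3 DB lists the cluster bar is higher than the flank bar. In the JP lists it is lower, except in WT replicate 3 where cluster density is 1.02 times the flank value.

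The ratio of cluster to flank density was 2.04 in Q111/+ replicate 1, 1.50 in Q111/+ replicate 2 and 1.38 in WT replicate 1, all DB. It was 0.940 in Q111/+ replicate 3, 0.711 in Q111/+ replicate 4, 0.742 in WT replicate 2 and 1.02 in WT replicate 3, all JP. The 2 sets of lists did not overlap. Over 7 libraries the mean log2 ratio was 0.16, a 1.11-fold excess in the clusters, with 4 of 7 libraries above 0 (two-sided exact sign-flip permutation, p = 0.453, smallest possible 0.0156). The DB lists averaged a log2 ratio of 0.69 ± 0.29 (SD, n = 3) and the JP lists -0.25 ± 0.25 (SD, n = 4). The difference of 0.94 on the log2 scale, 1.92-fold, had a two-sided exact permutation p of 0.0286, the smallest that 35 splits allow. This contrast was chosen after seeing the data. Permuting the prefix within genotypes gave a difference of 0.88 with an exact permutation p of 0.111, where 18 splits allow none under 0.0556. Without any 1 library the difference was 0.77 to 1.05 with exact permutation p-values of 0.0667 to 0.1, and such splits allow none under 0.0667. The direction held in both genotypes, at 1.10 in Q111/+ and 0.67 in WT.

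The counts behind these ratios were small. The clusters make up 12.7% of the examined length. They held 22.8% of the 307 peaks of Q111/+ replicate 1 (95% Clopper-Pearson interval 18.2 to 27.9), 17.9% in Q111/+ replicate 2 (13.3 to 23.3) and 16.7% in WT replicate 1 (14.6 to 18.9). Each of these 3 intervals lies above the share of length. In the JP lists the share was 12% (6.87 to 19) and 9.34% (5.54 to 14.5) for Q111/+ replicates 3 and 4, and 9.72% (6.70 to 13.5) and 12.9% (8.96 to 17.7) for WT replicates 2 and 3. Each of these 4 intervals includes the share of length. The intervals cover counting error only.

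Set against the density of its own whole list, the cluster density again divided by prefix. In the DB lists it was 2.80, 2.2 and 1.80 times the list's genome-wide density for Q111/+ replicates 1 and 2 and WT replicate 1. In the JP lists it was 0.631 and 0.683 times for Q111/+ replicates 3 and 4, and 0.554 and 1.04 times for WT replicates 2 and 3. No JP list reached the lowest DB value. The log2 difference was 1.66, 3.16-fold (DB 1.16 ± 0.32, n = 3, JP -0.50 ± 0.39, n = 4, two-sided exact permutation p = 0.0286). Within genotypes it was 1.58 (exact permutation p = 0.111), and without any 1 library it was 1.50 to 1.85. Over all 7 lists the mean was 0.21 (two-sided exact sign-flip permutation p = 0.578).

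The flanks followed the prefix too, to a smaller extent. Their density was 1.37, 1.47 and 1.30 times that of the list in Q111/+ replicates 1 and 2 and WT replicate 1. It was 0.671, 0.962, 0.747 and 1.02 times in Q111/+ replicates 3 and 4 and WT replicates 2 and 3. The log2 difference was 0.72, 1.65-fold (two-sided exact permutation p = 0.0286, and 0.111 by the exact permutation within genotypes). The DB lists were thus above their own mean in the flanks as well as in the clusters.

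Along the intervals, the DB excess was spread over the clusters and not held by 1 end. Relative to the list's density and averaged over the 3 DB lists, 5 equal bins of a cluster from low to high coordinate stood at 1.99, 2.05, 2.55, 2.15 and 2.59. The 20 bins of 50 kb outside stood at 0.822 to 1.80, with 1.23 next to the cluster on the lower side and 1.41 on the higher side. The greatest of them lay 150 to 200 kb out on the higher side. In the JP lists the bins inside stood at 1.11, 0.591, 0.629, 0.493 and 0.804, and the nearest bins outside at 1.05 and 0.943. These are means over lists with no test.

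**Figure D2:**
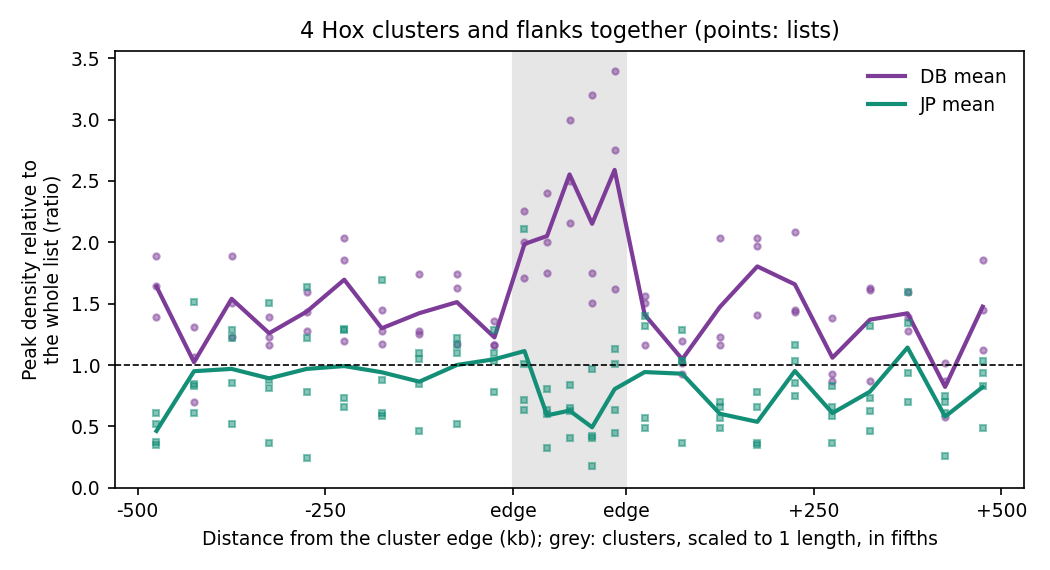
Peak density relative to the whole list along the scaled Hox clusters and their flanks, by distance from the cluster edge in 50 kb bins, with points for single lists and lines for the means of the DB and of the JP lists. The clusters (grey) are scaled to 1 length. The DB line stands between 1.99 and 2.59 in all 5 bins of the cluster and between 0.822 and 1.80 in the bins outside, while the JP line lies between 0.493 and 1.11 in the cluster.

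The clusters were then taken singly, with 0.5 peaks added to each count. HoxA, the cluster whose genes pattern limbs and the posterior body among other sites, held 18, 11, 4 and 2 peaks in Q111/+ replicates 1 to 4 and 48, 4 and 5 in WT replicates 1 to 3. Its log2 ratio to its own flanks was 1.33, 0.78, 0.09 and -1.48 in Q111/+ and 0.72, -1.01 and -0.20 in WT. The 3 DB lists were the highest. DB exceeded JP by 1.59 on the log2 scale (two-sided exact permutation p = 0.0571, 0.0762 adjusted over 4 clusters by Benjamini-Hochberg).

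HoxD, whose genes act in digit and genital development, held 13, 13, 4 and 3 peaks in Q111/+ and 41, 12 and 8 in WT. The log2 ratio to its flanks was 0.98, 1.29, -0.15 and -1.12 in Q111/+ and 0.54, -0.34 and -0.13 in WT. The 4 JP lists were all below 0 and the 3 DB lists all above. The difference was 1.37 (exact permutation p = 0.0286, adjusted 0.0571).

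HoxB, the longest interval, held 23, 14, 3 and 6 peaks in Q111/+ and 72, 13 and 10 in WT. Its log2 ratios were 0.75, 0.45, -0.12 and 0.13 in Q111/+ and 0.18, 0.08 and -0.17 in WT. The prefixes did not overlap but were closer together, with a difference of 0.48 (exact permutation p = 0.0286, adjusted 0.0571). With lists cut to the length of the shortest, the exact permutation p was 0.457 for HoxB and 0.171 for HoxD. In the full lists, permuting the prefix within genotypes gave exact permutation p-values of 0.111 and 0.0556, where 18 splits allow none under 0.0556.

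HoxC held 16, 6, 4 and 6 peaks in Q111/+ and 39, 2 and 9 in WT. Its log2 ratios were 1.17, -0.09, 0.74 and 1.09 in Q111/+ and 0.49, -0.74 and 0.98 in WT, with the prefixes mixed. The difference between prefixes was 0.01 (exact permutation p = 1). No cluster differed from its flanks over the 7 libraries, the mean log2 ratios being 0.04, 0.19, 0.52 and 0.15 for HoxA, HoxB, HoxC and HoxD, with adjusted exact sign-flip permutation p-values of 0.953, 0.375, 0.375 and 0.854.

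**Figure D3:**
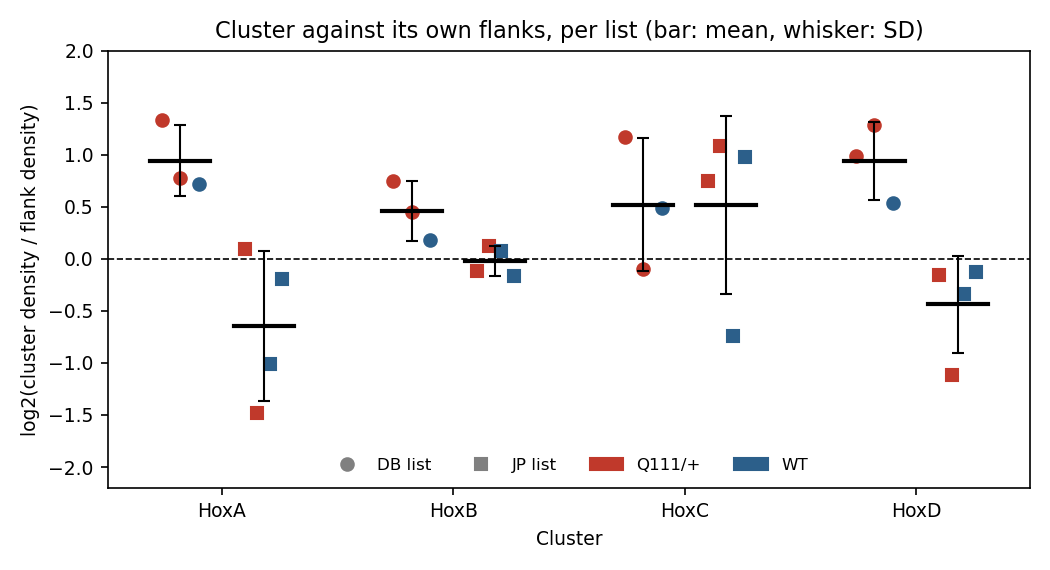
Log2 ratio of cluster to own-flank peak density for each Hox cluster and library, with 0.5 peaks added to each count. In HoxA, HoxB and HoxD the DB points lie above all JP points, while in HoxC they are mixed.

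For comparison with the rest of the genome, 16991 windows of 150 kb were set against their own 500 kb flanks in the same way. Windows denser than their flanks in all 3 DB lists made up 18.2% of those tested, and 3 of the 4 clusters, HoxA, HoxB and HoxD, were among this kind. Windows whose ratio was greater in every DB than in any JP list made up 4.46%, and the same 3 clusters met this. Windows denser than their flanks in all 7 lists made up 3.92%, and 0 of the 4 clusters met this. Sparser in all 7 lists were 2.87% of windows and 0 of the 4 clusters. A ratio lower in every DB than in any JP list was found in 4.27% of windows and in 0 of the 4 clusters. Windows with a density relative to the list that was higher in every DB list made up 12.5%, and all 4 clusters met it. The opposite held for 14.7% of windows and 0 of the 4 clusters. Windows sparser than their flanks in all 4 JP lists made up 10.6%, and HoxD alone of the 4 clusters met this, while 13.3% of windows and 0 clusters were denser in all 4. By the density of the window alone, the median percentile of the clusters among the windows was 97.7 for HoxA, 94.2 for HoxB, 82.6 for HoxC and 98 for HoxD in the DB lists. In the JP lists it was 22.3, 29.9, 53.5 and 43.9. Single lists came close to each other at HoxC, where the lowest DB list stood at 78.7 and the highest JP list at 77.4. At HoxD the lowest DB list stood at 84.0 and the highest JP list at 70.2. These percentiles are a description with no test.

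The flanks of HoxB and HoxC carried most of the flank difference. HoxB flanks had 1.65, 1.57 and 1.70 times the list density in the DB lists, and 0.463, 0.70, 0.674 and 1.13 times in the JP lists. HoxC flanks had 1.35, 1.60 and 1.17 times in DB, and 0.512, 0.560, 0.342 and 0.714 times in JP. In both clusters the DB and JP values did not overlap. The log2 differences were 1.22 for HoxB and 1.40 for HoxC (exact permutation p = 0.0571 and 0.0286, adjusted 0.114 each over 4 flank pairs). The mean log2 ratio of HoxC to its flanks was 0.52 in both sets of lists, while its cluster and its flanks were each denser relative to the list in every DB list.

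HoxA flanks stood at 1.30, 1.48 and 1.18 times the list density in DB and at 0.780, 1.24, 0.715 and 0.902 times in JP, which overlap (difference 0.56, exact permutation p = 0.0857, adjusted 0.114). HoxD flanks stood at 1.21, 1.22 and 1.14 times in DB and at 0.927, 1.35, 1.25 and 1.33 times in JP (difference -0.02, exact permutation p = 0.943). Of the 8 single flanks, 5 were denser relative to the list in every DB than in any JP list, namely both sides of HoxB and HoxC and the higher-coordinate side of HoxA. Among 5064 windows of 500 kb the same held for 19.4%, and the opposite for 24.1% of windows and 0 of the 8 flanks (0.5 peaks added to each count). Without the addition the same flanks were counted, and the windows made up 19.3% and 24.3%.

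**Figure D4:**
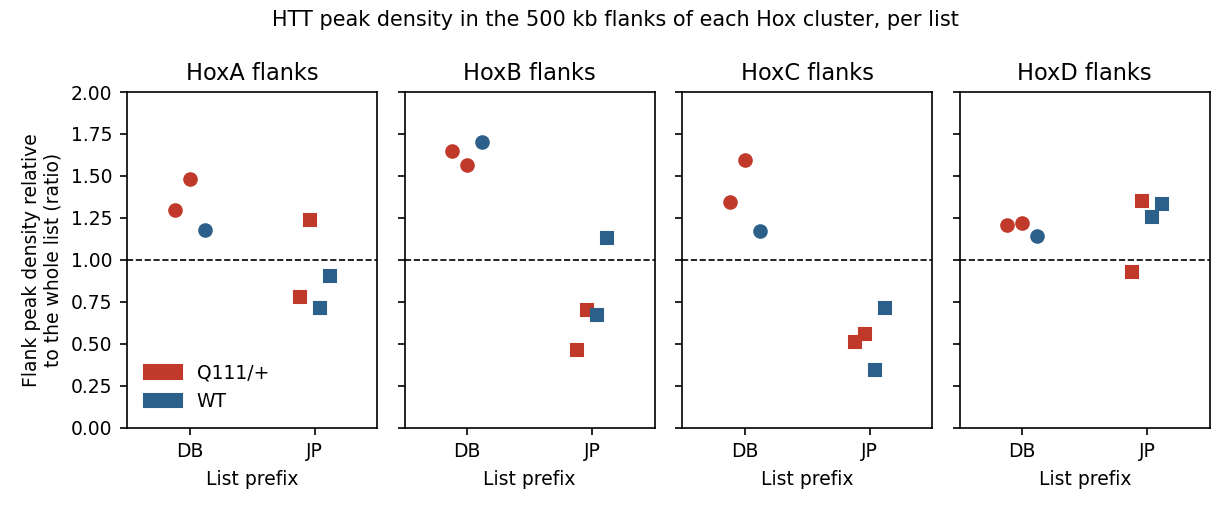
Peak density in the flanks of each Hox cluster relative to the list's genome-wide density, 1 point per list (circles DB, squares JP), coloured by genotype. The HoxB and HoxC flanks lie between 1.17 and 1.70 in the DB lists and between 0.342 and 1.13 in the JP lists, and the HoxD flanks overlap.

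The comparison of genotypes asked whether the expanded allele went with another distribution of HTT peaks over clusters and flanks. None was detected. The log2 ratio of cluster to flank averaged 0.26 ± 0.68 in Q111/+ (SD, n = 4) and 0.02 ± 0.45 in WT (SD, n = 3), a difference of 0.24 (two-sided exact permutation p = 0.657). Within prefixes the difference was 0.13 (exact permutation p = 0.667), made of 0.34 in the DB lists and -0.09 in the JP lists. By cluster the differences were 0.34 for HoxA, 0.27 for HoxB, 0.49 for HoxC and 0.23 for HoxD, each with an adjusted exact permutation p of 0.771. No cluster had a ratio higher, or lower, in every Q111/+ than in every WT list, as held for 3.75% and 2.72% of windows. The differences over all lists have the spread of both prefixes in them and were not told apart from it. What size of change these libraries could detect was not examined.

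In raw numbers the clusters held fewer peaks in Q111/+ lists than in WT lists of the same prefix. The log2 difference in cluster density was -0.97 (exact permutation p = 0.4), and -1.41 within prefixes (exact permutation p = 0.0556, the smallest that 18 splits allow), from -1.85 in the DB lists and -0.98 in the JP lists. The WT lists are also longer in all. Relative to list length the difference was 0.34 (exact permutation p = 0.686), or 0.13 within prefixes (p = 0.667 by the same exact permutation). With all lists cut to the length of the shortest it was 0.39.

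2 of the 8 single flanks separated the genotypes, and 1 of them did so only with 0.5 peaks added to each count. The higher-coordinate side of HoxD, toward Mtx2, stood at 1.07, 1.10, 1.02 and 0.933 times the list density in Q111/+ replicates 1 to 4. It stood at 1.23, 1.31 and 1.32 times in WT replicates 1 to 3. No Q111/+ value reached the lowest WT value, with or without the added 0.5. The lower-coordinate side of HoxA, toward Skap2, stood at 1.11, 1.63, 1.02 and 1.40 times in Q111/+ and at 1.04, 0.747 and 0.977 times in WT. With 0.5 peaks added, every Q111/+ value lay above every WT value, but in the counts as they stand Q111/+ replicate 3 at 1.02 lies below WT replicate 1 at 1.04. Among the windows of 500 kb with 0.5 added, 1.42% were lower and 1.9% higher in every Q111/+ list, and without it 1.74% and 1.8%. The count without the addition was made after the calls were seen, and neither flank was given a test.

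No difference in strength was detected between cluster and flank peaks. The median fold of the authors differed by 0.04 between cluster and flank peaks over the 7 lists (two-sided exact sign-flip permutation p = 0.625), and the median width by 0.714 bp (exact sign-flip permutation p = 0.953). By percentile rank of −log10 p in its list the difference was -2.21 percentile points (exact sign-flip permutation p = 0.625). By list it was 13.1 and 5.84 in Q111/+ replicates 1 and 2 and -15.9 and -12.6 in replicates 3 and 4, and 0, 0 and -5.94 in WT. For fold and rank only 5 of the 7 lists differed from 0, so the smallest p this test could give was 0.0625, and it could not have passed 0.05. The greatest fold in the clusters was 3.85 to 6.26 over the lists.

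The summits in the clusters rested on few fragments, with medians of 5, 5, 6 and 5 in Q111/+ and 4.5, 4 and 5 in WT. The most fragments at any cluster summit were 7 to 10 over the lists, and in the flanks 9 to 13. Of the cluster peaks, 11, 2, 0 and 1 in Q111/+ replicates 1 to 4 and 14, 2 and 4 in WT passed a Poisson p of 0.001 computed on whole fragments. In the flanks 16, 18, 1 and 6 in Q111/+ and 72, 13 and 21 in WT passed it. As shares of the cluster peaks these were 15.7%, 4.55%, 0% and 5.88% in Q111/+ and 7%, 6.45% and 12.5% in WT. Over the whole lists the shares were 9.04%, 8.27%, 5.33% and 5.36% in Q111/+ and 6.54%, 4.69% and 14.1% in WT. The cluster share was above that of the list in 4 of the 7 libraries. The strongest 8892 peaks of each list held 9, 3, 0 and 1 cluster peaks in Q111/+ and 2, 2 and 1 in WT, beside 14, 20, 2 and 8 flank peaks in Q111/+ and 10, 7 and 10 in WT. The ratio of cluster to flank density in them ran from 0 in Q111/+ replicate 3 to 4.43 in Q111/+ replicate 1.

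Few places in the clusters were called more than once. Overlapping peaks of the 7 lists were merged into 356 regions in the clusters and 1918 in the flanks. An overlap of 1 bp joined peaks, so the peaks of 1 region need not all overlap one another. Regions called in a single library made up 87.6% of those in the clusters and 87.1% in the flanks, and 85% of all 1075255 regions of the genome. Regions called in at least 2 libraries numbered 44 in the clusters (12.4%) and 248 in the flanks (12.9%), near the genome's 15%. Without WT replicate 1, which has the longest list, the 44 fell to 10, and without Q111/+ replicate 1 to 28. At least 4 libraries called 1 cluster region (0.281%) and 7 flank regions (0.365%), against 0.95% in the genome. No cluster or flank region was called in all 7 libraries, as 0.13% of regions were. Calls of DB lists alone made up 73.6% of cluster regions, 62.5% of flank regions and 50.2% of all regions. Calls of JP lists alone made up 19.7%, 29.0% and 39.6%.

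**Figure D5:**
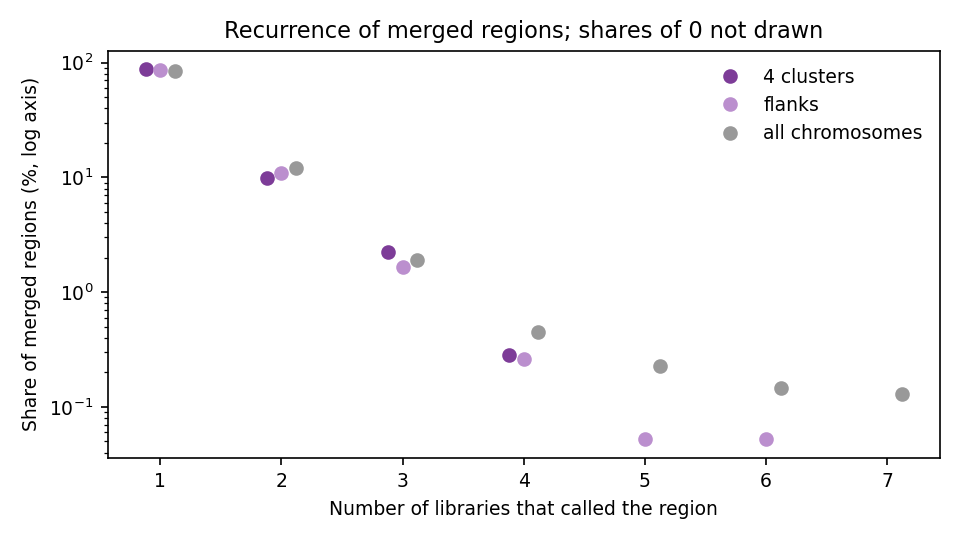
Share of merged regions, in percent on a log axis, by the number of libraries calling them, in the Hox clusters, in the flanks and over the genome. Regions called by 1 library make up 87.6% in the clusters, 87.1% in the flanks and 85% in the genome, and no cluster region was called by more than 4.

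The cluster region called most often was in HoxC at chr15:102814019-102814764 (mm9), in 4 libraries. Its authors' fold was 4.68 in Q111/+ replicate 1, 3.32 in Q111/+ replicate 3, 3.19 in WT replicate 1 and 2.46 in WT replicate 2, on 7, 6, 4 and 4 fragments. It was the only cluster region seen in at least 4 libraries, and both genotypes and both prefixes called it. The peak of Q111/+ replicate 3 did not overlap those of Q111/+ replicate 1 and WT replicate 2. It was joined to them by that of WT replicate 1, so no position in the region was covered in all 4 libraries. The next HoxC region, chr15:102790655-102791164, was called in Q111/+ replicate 1 and WT replicates 1 and 2.

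HoxB held chr11:96158514-96159106, called in all 3 DB lists and no JP list, with folds of 3.75, 4.16 and 2.85 on 7, 6 and 4 fragments in Q111/+ replicates 1 and 2 and WT replicate 1. HoxD held chr2:74532192-74532583, of the same pattern, with folds of 2.88, 3.31 and 3.79 on 7, 5 and 6 fragments. In the HoxB region the peaks of WT replicate 1 and Q111/+ replicate 2 did not themselves overlap and were joined by that of Q111/+ replicate 1. These 2 of 356 cluster regions (0.562%) were called by every DB list and no JP list, as were 0 of 1918 flank regions and 0.0567% of all regions. The reverse, every JP list and no DB list, held for 0 cluster and 0 flank regions and for 0.0167% of all. No cluster region was called in every Q111/+ and no WT library, or in every WT and no Q111/+ library, against 0.0027% and 0.321% of regions. In the flanks, 0 regions met the first call and 4 of 1918 (0.209%) the second. The leading HoxA region, chr6:52117731-52118021, was called in only 2 libraries, Q111/+ replicate 2 and WT replicate 1, both DB, with 5 fragments in each. Other HoxB and HoxD regions called in 3 libraries had a JP list among their callers. In HoxB, Q111/+ replicate 1 and WT replicates 1 and 2 called chr11:96051470-96051966, and Q111/+ replicates 1, 2 and 4 called chr11:96232355-96232700. In HoxD, WT replicates 1 and 3 called chr2:74575534-74576052 with Q111/+ replicate 1, and chr2:74555663-74556162 with Q111/+ replicate 2.

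The region called most often lay in the flanks, which hold 1918 regions against 356 in the clusters. On the lower side of HoxA, 79.3 kb from its edge, chr6:52019918-52020748 was called in 6 libraries, all but Q111/+ replicate 3. Its fold was 2.73, 3.42 and 2.31 in Q111/+ replicates 1, 2 and 4, and 7.02, 4.37 and 6.66 in WT replicates 1 to 3. A fold is comparable only inside its list, so these values do not compare the genotypes and were given no test. On the higher side of HoxC, 371 kb out, chr15:103241092-103242973 was called in 5 libraries. Its fold was 2.18 and 2.86 in Q111/+ replicates 2 and 3 and 4.70, 3.04 and 6.69 in WT replicates 1 to 3, on 6, 10, 9, 9 and 11 fragments. The peaks of the 2 Q111/+ lists did not overlap that of WT replicate 3 and were joined to it by those of WT replicates 1 and 2. These folds do not compare the genotypes either. On the higher side of HoxD, chr2:74925125-74925522 was called in Q111/+ replicate 1 and all 3 WT libraries.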

How the data were processed

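HTT ChIP-seq peak lists, 1 per library, were used. The submitters' processing notes name Bowtie2 2.2.5, MACS2 2.1 and the build mm9 without role or order, and the names of the deposited lists show MACS calls at a p of 0.001. The sources used here do not state if input was the control. The deposited fold is a ratio of the summit to its local background, computed by the authors. Deposited with it are −log10 p-values and −log10 q-values. The authors' score, which repeats the −log10 p as a whole number, was not used, and the deposited summit offset placed each peak. Densities are peaks per 100 kb, on the 19 autosomes, X and Y for the list. Fragments were recovered from the deposited fold and −log10 p with a tolerance of 0.02. They matched in at least 99.7% of peaks. Libraries were compared by exact permutation, two-sided, over 35 splits or 128 sign flips.

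The members and the lists were chosen with earlier results of these data known. Regions to name were drawn from the 3 in each cluster and the 2 in its flanks that the most libraries called. Ties were ordered by rank of −log10 p. Any in a cluster called by all libraries of 1 genotype alone were to be added. Not all regions so selected are described. The comparison of DB with JP lists was added after seeing the data. Windows had 0.5 peaks added. For single flanks and 500 kb windows the calls without this were computed too, after the first calls were seen. The alternatives were other thresholds, list lengths, flank widths, pseudocounts, overlap rules, a replicate block, a prefix block and each library left out. Peak sequences are not shown because no mm9 genome was used here. The tools were scipy 1.17.1, pandas 2.3.3, numpy 2.4.6 and matplotlib 3.10.9 under Python 3.11.15.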

Additional observations from a re-analysis of the deposited data

Results flagged for a closer look

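The DB and JP lists differed within the same intervals. The log2 difference, DB minus JP, was 0.94 for the ratio of cluster to flank, 1.66 for cluster density relative to the list and 0.72 for flank density relative to the list. Each had a two-sided exact permutation p of 0.0286, the smallest of 35 splits, and of 0.111 within genotypes, where 18 splits allow none under 0.0556. The sources used here do not say what the prefixes stand for.

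The genotypes moved in opposite directions in the 2 sets of lists for the strength of cluster peaks against flank peaks. Q111/+ minus WT for the difference in median fold was 0.23 in the DB lists and -0.085 in the JP lists. For the difference in percentile rank it was 9.47 in the DB lists and -11.3 in the JP lists. These differences between the sets were not tested. Among the 4 Q111/+ lists, 11 measures were examined for a list far from the others, and 0 showed one.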

How the results depend on the processing

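Of 441 alternative values over 33 results, 349 kept their direction and their side of the threshold or, for counts without a test, stayed close to the main count. The cluster to flank ratio over all lists stayed above 0 when any 1 library was left out (log2 0.01 to 0.26), while cluster against list density ran from -0.0047 to 0.38. The DB minus JP differences lost their call with any 1 library left out, at 0.77 to 1.05 and 1.50 to 1.85, and with the genotype block, at 0.88 and 1.58. Neither setting could have kept the call, since their splits allow no p under 0.0667 and 0.0556.

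The genotype difference ran from -0.019 to 0.49 for the cluster to flank ratio, from -0.10 to 0.75 for relative density and from -1.43 to -0.08 for raw density with 1 library left out. With lists cut to the shortest length the raw density difference was 0.39. By cluster the ranges were -0.079 to 0.90 for HoxA, -0.0066 to 0.86 for HoxC and -0.12 to 0.68 for HoxD, and -1.22 for HoxD in the 8892 strongest peaks of each list.

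Against its own flanks, HoxA gave -0.18 to 0.29 with 1 library left out, -0.15 by covered positions, -0.048 with flanks of 250 kb, -0.045 with the lower flank, and -0.083 without a pseudocount. HoxB gave -0.049 with flanks of 250 kb, and HoxD -0.036 to 0.37 with 1 library left out. DB minus JP at HoxC was -0.41 to 0.31 with 1 library left out, -0.10 with the lower flank and -0.071 with a pseudocount of 1. In those strongest peaks, DB minus JP was -0.61 at HoxA, -0.48 at HoxC and -0.15 at HoxD. There 3 of 4 clusters had an adjusted exact sign-flip permutation p under 0.05 against their flanks. These lists held only 0 to 9 cluster peaks each over the 4 clusters. The 0.5 peaks added to a short cluster and to its longer flanks raise the ratio of an empty cluster. Single-cluster values in the strongest peaks therefore cannot decide whether clusters exceed their flanks. Pooled ratios gave no value in the strongest peaks or under the whole-fragment p, where a list held 0 cluster peaks. At HoxB and HoxD, DB minus JP kept its direction but fell short of an unadjusted exact permutation p of 0.05 in 13 and 10 alternatives. Among them were a −log10 q of at least 2 (exact permutation p = 0.0857 and 0.0571) and a −log10 p of at least 5 (p = 0.114 and 0.0857), and for HoxB covered positions (p = 0.2). The cause of these changes was not tested.

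Leaving out 1 library, the differences between cluster and flank peaks ran from -0.0075 to 0.062 for fold, -4.77 to 0.071 for percentile rank and -2.83 to 5.67 bp for width. Regions called in at least 2 libraries numbered 10 to 42 with 1 library left out and 6 in lists cut to the shortest length. Regions in at least 4 libraries numbered 0 to 1, and 0 in lists cut to the shortest length and with an overlap of 50 percent. Regions of every WT and no Q111/+ library numbered 0 to 7, and of the reverse kind 0 to 1. Without the added 0.5 peaks, the single flanks denser in every Q111/+ list numbered 0 in place of 1.

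Same-numbered libraries correlated at 0.56, -0.50 and -0.02 in their window deviations. Pairs of unlike number but the same prefix correlated at 0.0062 to 0.62. Replicate 2 joins a DB with a JP list, so these values cannot decide whether the replicate numbers pair the samples. With the replicate block the genotype difference was 0.49 for the ratio (exact permutation p = 0.5), -0.70 for cluster density and 0.64 for relative density, and no call changed.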
